A study of Mus musculus with 24 samples.

Results

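RNA from the lumbar spinal cord of heterozygous GFP-PR28 mice was compared with that of control mice at 6 months of age. The comparison takes 6 of the 24 libraries of the series: 3 heterozygous libraries, labelled SC-OE, and 3 control libraries, labelled SC-WT. Membership was set by these labels alone and by no measured value. The mice carry a Rosa26 construct with a floxed stop, from which Cre recombinase switches on GFP fused to a proline-arginine dipeptide repeat. Poly-PR is one of the repeat proteins made from the expanded C9ORF72 repeat in frontotemporal dementia and amyotrophic lateral sclerosis. The construct encodes it with repeats of CCAAGA and lacks the GGGGCC repeat of C9ORF72. Heterozygotes are GFP-PR28 flox/+; Thy1-Cre+/- on a C57BL/6 background. The controls, called WT in the labels, are littermates that carry the same silent construct but no Cre (GFP-PR28 flox/+; Thy1-Cre-/-), so Cre and poly-PR differ together between the groups. Thy1-Cre acts in neurons, so the construct is not meant to be switched on in glia. The study examined the spinal cord as one of the regions that degenerate in patients. Libraries held from 17121314 to 25490124 counted reads. Of 46078 genes in the table, 17522 had enough reads to be tested.

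Microglia are the resident immune cells of the spinal cord. They read damage through receptors that signal by way of the adaptors TYROBP and FcRγ, among them TREM2, and they make the C1q subunits that start the classical complement cascade. In models of neurodegeneration they take on a disease-associated state, in which receptors, lysosomal proteases and chemokines increase while the genes of resting microglia are reduced. Neurons respond to proteotoxic or amino acid stress through the integrated stress response, in which phosphorylation of eIF2α favours translation of ATF4, a factor that induces amino acid transporters, amino acid synthesis enzymes, CHOP (Ddit3) and CHAC1. The unfolded protein response of the endoplasmic reticulum shares that arm and in addition induces chaperones such as BiP (Hspa5).

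The tissue label was borne out by position genes. The 9 Hox genes of lumbar level summed to between 268 and 337 CPM (reads of a gene per 1000000 reads of all tested genes, after TMM scaling) in the control libraries and between 303 and 341 in the heterozygous libraries. The 8 cortex markers summed to between 27.9 and 70.8 CPM over the 6 libraries. Thy1, whose promoter drives Cre, stood at 568, 622 and 578 CPM in controls and 699, 562 and 549 CPM in heterozygotes, and the groups overlapped. The GFP-PR28 transcript itself was not analysed here, so the genotype of no library, heterozygous 1 included, was checked against it.

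Marker sums of nerve roots, meninges, leukocytes and muscle varied among libraries, and the source of this RNA was not tested. The 12 markers of Schwann cells and sensory ganglia, which mark nerve roots, summed to 621, 1612 and 1080 CPM in controls 1 to 3, and to 327, 2231 and 2357 CPM in heterozygous 1 to 3. The first heterozygous library was therefore the lowest of all 6, and the other two were the highest. The 16 meningeal and fibroblast markers were likewise lowest in heterozygous 1 and highest in the other two, with 682 CPM in heterozygous 1 against 1630 and 1350 CPM in heterozygous 2 and 3, and 901 to 1166 CPM in controls. The 19 markers of other leukocytes (neutrophils, lymphocytes, monocytes and macrophages other than microglia) summed to 118 CPM in heterozygous 2. The sum was 12.6 CPM in heterozygous 1, 29.4 CPM in heterozygous 3 and 16.3 to 24.6 CPM in controls. The neutrophil gene S100a9 stood at 56.8 CPM in heterozygous 2 and at no more than 6.54 CPM elsewhere. The 16 skeletal muscle genes reached 359 CPM in heterozygous 2 and stayed between 93.3 and 115 CPM in the other 5.

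**Figure D1:**
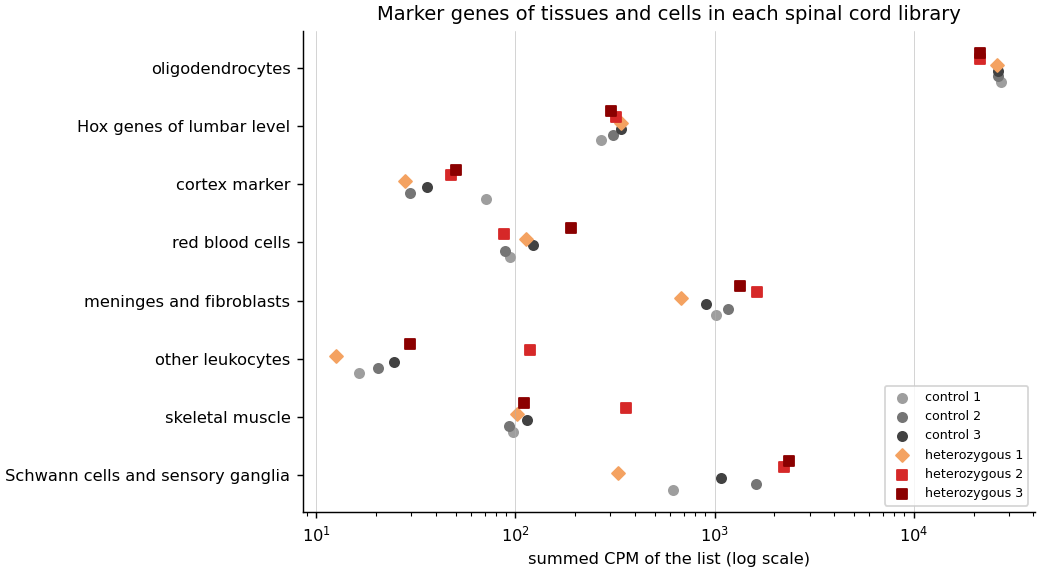
Summed CPM (x axis, log scale) of marker lists for tissues and cell types in each of the 6 spinal cord libraries, with 1 point per library. Heterozygous 1 has the lowest Schwann cell and meningeal sums (327 and 682 CPM), and heterozygous 2 has the highest sum for other leukocytes (118 CPM).

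Heterozygous 1 also stood apart over all genes. The chi-square of read counts per gene, which is 1 when libraries differ only by read sampling, was 5.52 between heterozygous 1 and control 3, but 17.0 between heterozygous 1 and either of the other heterozygous libraries. Heterozygous 2 and 3 differed from each other by 7.39, and the controls differed among themselves by 6.23 to 7.75. This value grows with read depth, and heterozygous 1 had the fewest counts (17121314). Deviations of genes from their mean over the 6 libraries were correlated with transcript length (Spearman). The correlation was -0.265 in heterozygous 1, 0.165 and 0.150 in heterozygous 2 and 3, and 0.105, -0.118 and -0.103 in controls. The part of depth and length in these differences was not tested. No pair of libraries was as close as sampling noise, so none was counted as a duplicate. Heterozygous 1 was thus the heterozygous library nearest to the controls, and calls below are given with and without it. Leaving it out removes the library that most reduces the difference between groups, so results without it describe the other 5 libraries and are not independent support.

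With all 6 libraries, 18 genes rose and 1 fell in heterozygous spinal cord (edgeR's quasi-likelihood test, a Benjamini-Hochberg adjusted p below 0.05 with a log2 fold change of more than 0.2 in size). These are 0.103% and 0.00571% of the genes tested. Of the 18, 13 are best known as genes of microglia and other myeloid cells, and the others are Atf4, Peg10, Fosl2, Vgf and Fam46c. An unadjusted p under 0.05 was reached by 1135 genes, and the median log2 fold change over all genes was 0.01. The labels number the samples 1 to 3 in each group and say nothing more of their origin, so p-values measure the spread between these samples.

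**Figure D2:**
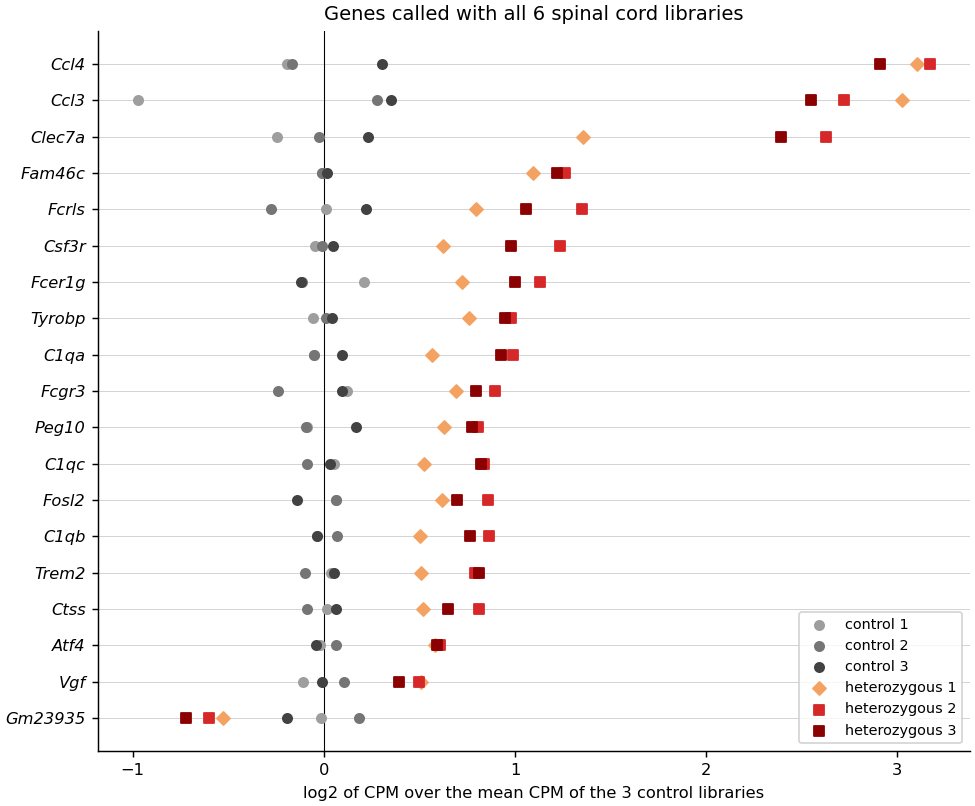
Log2 of the CPM in each library over the mean CPM of the 3 controls (x axis), for the 19 genes called with all 6 libraries (y axis). Each of the 3 heterozygous points lies above all 3 control points for 18 genes and below them for Gm23935.

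The number of calls depended on single libraries. Without heterozygous 1, 399 genes rose and 244 fell of 17927 tested (2.23% and 1.36%), and all 19 genes were among them (100% of the 19 and 2.95% of the 643). The 399 also include 3 of 16 skeletal muscle genes, 2 of 12 Schwann cell and ganglion markers and 1 of 16 meningeal markers. A further 2 meningeal markers fell. The part of such tissue in the other calls was not tested. Without control 3 a single gene rose, and without any one of the remaining 4 libraries no gene was called, with 576 to 859 genes at an unadjusted p under 0.05. The edgeR fits with non-robust dispersions and with all 12 libraries of the same table also called 0 genes, with 1151 and 777 genes at an unadjusted p under 0.05, while DESeq2 on the 6 libraries called 59 higher and 15 lower. The balance of higher and lower calls without heterozygous 1 moved with scaling: 62.1% of calls were higher with TMM, 80.6% with library totals and 27.7% with an offset for gene length and GC content. Across tested genes every heterozygous library stood above every control for 1102 genes (6.29%) and below every control for 905 (5.16%).

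**Figure D3:**
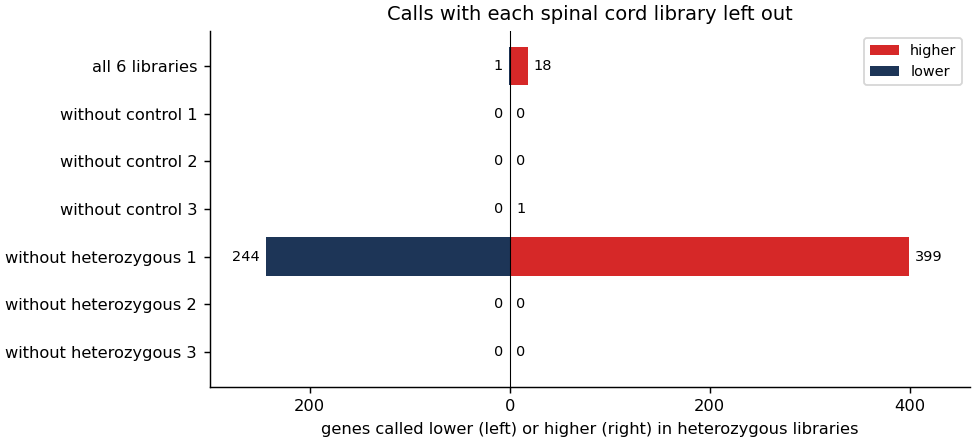
Number of genes called higher and lower with all 6 libraries and after leaving out each library in turn. The count is 18 higher and 1 lower with all 6, 399 and 244 without heterozygous 1, and 0 or 1 without any of the other libraries.

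The complement initiator C1q was raised in all its subunits. C1qa stood at 37.3, 37.3 and 41.3 CPM in controls and at 57.1, 76.6 and 73.5 CPM in heterozygotes. The groups did not overlap, and heterozygous 1 was the lowest of the raised libraries. The log2 fold change was 0.84 ± 0.11 (SE), a 1.79-fold difference (adjusted p = 0.013, edgeR), and 0.96 ± 0.08 without heterozygous 1 (adjusted p = 6.4e-06). C1qb (38.4, 41.2 and 38.3 against 55.7, 71.5 and 66.9 CPM) and C1qc (37.3, 33.7 and 36.7 against 51.6, 64.1 and 63.6 CPM) showed the same pattern, with log2 fold changes of 0.72 and 0.74, and of 0.81 and 0.83 without heterozygous 1 (adjusted p = 2.2e-05 for both). The 3 genes lie side by side on chromosome 4, with C1qa at chr4:136895917-136898803 (GRCm38). In bulk tissue, more cells of a type and more RNA per cell cannot be told apart.

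Of the 20 complement genes, all tested, these 3 rose with all 6 libraries and 9 rose without heterozygous 1 (0.103% and 2.23% of all genes), with none lower. This list and those below were written after the study's lists of changed genes had been read. Counts of their members are therefore descriptions and not independent support. The median log2 fold change was 0.67 with all 6 libraries, where the median over all genes was 0.01. It was 0.34 without heterozygous 2 and 0.82 without heterozygous 1. Every heterozygous library was above every control for 7 of the 20, against 6.29% of all genes. C4b, the fourth component of the cascade, stood at 93.5, 101 and 79.1 CPM in controls and at 98.7, 175 and 177 CPM in heterozygotes. Heterozygous 1 lay inside the control range and the other two stood above it, so that the adjusted p was 0.76 with all 6 libraries and 6.5e-05 without heterozygous 1. C4b has a near-identical neighbour, C4a, and its reads may be split between them. C3, the central component, was not called in either fit, with log2 fold changes of 0.61 and 0.76 (adjusted p = 0.78 and 0.30).

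Trem2, its adaptor gene Tyrobp and the receptor gene Clec7a rose with all 6 libraries and without heterozygous 1. Tyrobp, which encodes the adaptor that carries the TREM2 signal, stood at 9.07, 9.48 and 9.71 CPM in controls and at 15.9, 18.6 and 18.2 CPM in heterozygotes. All heterozygous libraries stood well above the controls, by a log2 fold change of 0.90 ± 0.11 (adjusted p = 0.013, and 0.00036 without heterozygous 1). Trem2, the lipid-sensing receptor, stood at 12.8, 11.7 and 12.9 CPM against 17.8, 21.6 and 21.9 CPM. The groups did not overlap and the log2 fold change was 0.71 ± 0.11 (adjusted p = 0.039, and 0.00072 without heterozygous 1). Clec7a, the β-glucan receptor dectin-1 and a marker of disease-associated microglia, stood at 1.02, 1.19 and 1.41 CPM against 3.09, 7.45 and 6.32 CPM. Heterozygous 1 was the lowest heterozygous library, and the log2 fold change was 2.22 ± 0.32 (adjusted p = 0.038, and 1.2e-05 without heterozygous 1).

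The chemokine ligands Ccl3 and Ccl4, which attract monocytes and are made by activated microglia, were scarce in controls. Ccl3 stood at 0.146, 0.346 and 0.365 CPM in controls and at 2.32, 1.88 and 1.67 CPM in heterozygotes. Heterozygous 1 was the highest of the 3, and the groups did not overlap. The controls held 18 reads in all and the heterozygotes 126, a ratio of 6.85 (95% exact interval 4.16 to 11.9, counting error only, adjusted p = 0.016), and without heterozygous 1 the ratio was 6.42 (3.83 to 11.3, adjusted p = 0.0026). For Ccl4 the controls held 7 reads and the heterozygotes 61, a ratio of 8.52 (3.90 to 22.1, adjusted p = 0.039, and 0.0079 without heterozygous 1), with 0.951, 0.998 and 0.833 CPM in the 3 heterozygous libraries. Both lie on chromosome 11, and the ratio of Ccl4 was 8.54 without heterozygous 1.

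Of the 27 genes of the disease-associated state, all tested, 5 rose with all 6 libraries and 15 rose without heterozygous 1, with none lower, where 0.103% and 2.23% of all genes rose. Their median log2 fold change was 0.71, 26 of the 27 were above 0, and in 17 every heterozygous library exceeded every control, as it did in 6.29% of all genes. The 10 that were called only without heterozygous 1 include Itgax, Cst7, Gpnmb and Lgals3. Itgax, the integrin CD11c, stood at 0.728, 1.04 and 0.729 CPM in controls and at 2.32, 6.76 and 5.22 CPM in heterozygotes (adjusted p = 0.050 with all 6 libraries, 1.2e-05 without heterozygous 1). Gpnmb, a glycoprotein of lipid-laden phagocytes, stood at 2.67, 3.70 and 3.65 CPM against 4.22, 14.5 and 14.6 CPM. Lgals3, the lectin galectin-3, stood at 3.30, 2.62 and 2.55 CPM against 4.28, 11.6 and 10.1 CPM. In both, heterozygous 1 lay just above the controls and the others stood far above it. Cd68, a lysosomal protein of phagocytes, stood at 7.47, 6.96 and 7.89 CPM against 10.6, 16.2 and 19.9 CPM, and its log2 fold change of 1.07 ± 0.20 missed the threshold with all 6 libraries (adjusted p = 0.15) and passed without heterozygous 1 (1.27 ± 0.14, adjusted p = 7e-05).

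Of the 15 homeostatic microglial genes, 1 rose with all 6 libraries and 4 rose without heterozygous 1 (2.23% of all genes rose there), and none fell. Their median log2 fold change was 0.11 with all 6 libraries and 0.09 without heterozygous 1, and they summed to 1751 to 1960 CPM in controls and 1869 to 2032 CPM in heterozygotes. P2ry12, the purinergic receptor that steers microglial processes, stood at 28.2, 23.9 and 27.6 CPM in controls and at 28.7, 23.3 and 22.6 CPM in heterozygotes. Tmem119 stood at 18.5, 19.8 and 18.8 CPM against 21.8, 20.7 and 19.0 CPM. Both overlapped between groups, with adjusted p of 0.92 and 0.89. Fcrls was the single member called with all 6 libraries: an Fc receptor-like gene of resident microglia, it stood at 6.21, 5.09 and 7.16 CPM against 10.7, 15.7 and 12.8 CPM, a log2 fold change of 1.09, and 1.21 without heterozygous 1 (adjusted p = 0.00067). Aif1, which encodes the pan-microglial protein IBA1, stood at 1.99, 2.82 and 3.19 CPM against 3.68, 5.26 and 3.47 CPM, and its log2 fold change of 0.64 ± 0.24 was not called in either fit (adjusted p = 0.69 and 0.14).

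Receptors for immunoglobulin and microbial patterns and their signalling genes were the list with the most non-overlapping members. Of 30 tested, 23 stood above every control in every heterozygous library (6.29% of all genes) and 3 rose with all 6 libraries (0.103%), with a median log2 fold change of 0.81. Of 31 tested without heterozygous 1, 18 rose (2.23%). Fcer1g encodes FcRγ, the shared chain of activating Fc receptors, and stood at 7.67, 6.13 and 6.11 CPM against 10.9, 14.5 and 13.2 CPM. Fcgr3, the low-affinity IgG receptor CD16, stood at 10.7, 8.35 and 10.5 CPM against 15.9, 18.4 and 17.2 CPM. Both separated the groups with no overlap, with log2 fold changes of 0.96 and 0.80, and of 1.07 and 0.85 without heterozygous 1 (adjusted p = 0.00092 and 0.0021). Csf3r, the receptor for granulocyte colony-stimulating factor, stood at 7.47, 7.66 and 7.98 CPM against 11.9, 18.1 and 15.2 CPM (log2 fold change 0.97 ± 0.15, adjusted p = 0.039, and 1.11 and 0.0003 without heterozygous 1). The sum of the other leukocyte markers was also highest in heterozygous 2 (118 CPM, against 12.6 to 29.4 CPM elsewhere), and its part in the values of this list was not tested. Mpeg1, the pore-forming perforin-2 of macrophages, stood at 34.4, 28.9 and 32.0 CPM against 48.2, 83.7 and 70.6 CPM (adjusted p = 0.30 with all 6 libraries, 5.1e-06 without heterozygous 1).

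Among 34 lysosomal genes tested, only Ctss rose with all 6 libraries in edgeR (0.103% of all genes rose). Without heterozygous 1, 12 of 35 rose (2.23% of all genes) and 11 of the 35 were below 0. Ctss, the cathepsin S protease of microglia, stood at 79.2, 73.7 and 81.8 CPM in controls and at 112, 137 and 123 CPM in heterozygotes, with no overlap and a log2 fold change of 0.67 ± 0.09 (adjusted p = 0.013), and of 0.73 ± 0.08 without heterozygous 1 (adjusted p = 5.9e-05). Ctsd, cathepsin D, which all cells use, stood at 469, 510 and 503 CPM against 612, 668 and 674 CPM (adjusted p = 0.093 with all 6 libraries and 0.0017 without heterozygous 1). Lamp1, a structural membrane protein of lysosomes, stood at 577, 625 and 624 CPM against 640, 607 and 557 CPM and overlapped. The median of the list was 0.10 on the log2 scale, and 0.06 without control 1. DESeq2 called 5 of its genes higher with all 6 libraries.

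The summed level of 35 interferon-stimulated genes was 319, 323 and 296 CPM in controls and 341, 598 and 419 CPM in heterozygotes, with heterozygous 1 nearest to the controls. Of 34 tested with all 6 libraries, edgeR called none and DESeq2 called 5 higher, 21 were at an unadjusted p under 0.05 in edgeR, and every heterozygous library exceeded every control in 16 (6.29% of all genes). The median log2 fold change was 0.63, and 0.38 without heterozygous 2. Of 35 tested without heterozygous 1, 19 rose (2.23% of all genes). Irf7, the regulator that amplifies type I interferon, stood at 3.64, 3.66 and 3.33 CPM in controls and at 5.41, 10.9 and 6.36 CPM in heterozygotes (adjusted p = 0.21, and 0.0038 without heterozygous 1). Ifit3, an antiviral effector, stood at 12.0, 13.7 and 15.6 CPM against 14.5, 31.0 and 20.97 CPM, so heterozygous 1 lay within the controls. Without heterozygous 1 its log2 fold change was 0.91 ± 0.17 (adjusted p = 0.028). In both genes heterozygous 2 was the highest library, as it was for the other leukocyte markers (118 CPM against 12.6 to 29.4 CPM), whose part in this result was not tested. When heterozygous 2 or control 2 was left out in addition to heterozygous 1, the 19 calls became 6 and 4.

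Promoters of interferon-stimulated genes carry a response element whose core is searched here as GAAANNGAA, on either strand, in the 250 bases before the start in RefSeq (GRCm38.p6). Of the 19 genes called without heterozygous 1, 14 had a promoter in the table and 5 held the core in at least 1 promoter. Among all 32851 promoters, 7.13% hold it, a share counted per promoter and not per gene, so the 2 are not directly comparable. A gene whose promoter lies on a chromosome left out of the search still counted as having a promoter. Those of Ifit3, Bst2 and Oas1a are shown because they are the members with more than 1 match. Capitals mark the matches, which overlap in Bst2 and Oas1a.
Ifit3, chr19:34583354-34583455, plus strand: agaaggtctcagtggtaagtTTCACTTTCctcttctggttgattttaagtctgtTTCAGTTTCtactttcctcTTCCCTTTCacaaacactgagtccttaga
Bst2, chr8:71537568-71537622, minus strand: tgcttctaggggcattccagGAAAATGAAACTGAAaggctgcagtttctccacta
Oas1a, chr5:120907526-120907565, minus strand: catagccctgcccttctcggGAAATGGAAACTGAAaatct
Bst2, tetherin, stood at 3.74, 4.30 and 4.56 CPM in controls and at 4.34, 14.5 and 7.19 CPM in heterozygotes. Oas1a, an activator of RNase L, stood at 1.07, 0.988 and 0.593 CPM against 1.37, 3.19 and 2.06 CPM. Both rose without heterozygous 1 (adjusted p = 0.039 and 0.013). A match describes the sequence and shows no binding.

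All 21 antigen presentation genes had log2 fold changes above 0, with a median of 0.83. In 7 of them every heterozygous library exceeded every control, where 6.29% of all genes did. With all 6 libraries edgeR called none, with 6 at an unadjusted p under 0.05, and DESeq2 called 3 higher. Without heterozygous 1, 7 rose in edgeR (2.23% of all genes). Without heterozygous 2 the median was 0.42. That library had the highest sum over the list (1066 CPM, against 551 and 784 CPM in heterozygous 1 and 3 and 466 to 556 CPM in controls) and the other leukocyte markers given above, whose part in this result was not tested. B2m, the light chain of MHC class I, stood at 121, 141 and 119 CPM in controls and at 158, 287 and 233 CPM in heterozygotes, with no overlap (adjusted p = 0.67, and 0.0004 without heterozygous 1). H2-K1, a class I heavy chain, stood at 50.0, 59.3 and 55.1 CPM against 66.0, 123 and 87.8 CPM, and its reads may be shared with related class I genes (adjusted p = 0.71, and 0.041 without heterozygous 1). Cd74, the invariant chain of class II, stood at 11.5, 14.2 and 20.2 CPM against 8.20, 72.6 and 33.1 CPM and was not called in either fit.

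Reactive astrocyte genes had a median log2 fold change of 0.58 and all 22 were above 0. With all 6 libraries edgeR called none, with 11 at an unadjusted p under 0.05, and DESeq2 called 4 higher. In 6 of the 22 every heterozygous library exceeded every control, as it did in 6.29% of all genes. Without heterozygous 1, 11 rose in edgeR (2.23% of all genes). Gfap, the intermediate filament of reactive astrocytes, stood at 1333, 1261 and 1159 CPM in controls and at 1506, 1650 and 1686 CPM in heterozygotes. The groups did not overlap, and the log2 fold change was 0.37 ± 0.08 (adjusted p = 0.21) with all 6 libraries and 0.41 ± 0.07 (adjusted p = 0.0042) without heterozygous 1. Serpina3n, a secreted protease inhibitor, stood at 66.4, 77.9 and 77.6 CPM against 96.0, 119 and 113 CPM (log2 fold change 0.56 ± 0.09, adjusted p = 0.050; without heterozygous 1, 0.65 and 0.00035). Timp1, an inhibitor of metalloproteases, stood at 0.873, 1.48 and 0.866 CPM against 0.713, 4.61 and 2.59 CPM, so that heterozygous 1 was below every control. The 14 genes of astrocyte identity had a median of -0.02.

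In the integrated stress response list, Atf4, its central transcription factor, rose. Atf4 stood at 107, 113 and 105 CPM in controls and at 162, 165 and 164 CPM in heterozygotes. The 3 heterozygous libraries were nearly equal, heterozygous 1 included, and stood far above the controls. The log2 fold change was 0.59 ± 0.07, a 1.51-fold difference (adjusted p = 0.013, edgeR), and 0.60 ± 0.07 without heterozygous 1 (adjusted p = 0.00015). Of the 41 stress response genes tested, 38 had log2 fold changes above 0, the median was 0.23, and 21 separated the groups upward (6.29% of all genes). Atf4 alone was called with all 6 libraries in edgeR (0.103% of all genes rose), and 7 rose without heterozygous 1 (2.23%).

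Slc7a1, the cationic amino acid transporter that imports arginine, stood at 60.7, 59.5 and 59.0 CPM in controls and at 73.6, 86.0 and 87.5 CPM in heterozygotes (log2 fold change 0.47 ± 0.08, adjusted p = 0.060; without heterozygous 1, 0.54 and 0.00055). Ddit3, the transcription factor CHOP, stood at 18.4, 17.6 and 17.8 CPM against 24.5, 23.4 and 24.6 CPM. Its 3 heterozygous libraries were even and its log2 fold change was 0.43 ± 0.09 (adjusted p = 0.15, and 0.025 without heterozygous 1). Atf5, a related factor translated under the same control, stood at 22.4, 24.2 and 21.6 CPM against 24.4, 30.9 and 31.1 CPM, with heterozygous 1 just above the control range (adjusted p = 0.55, and 0.012 without it). Asns, asparagine synthetase, stood at 95.1, 102 and 102 CPM against 129, 117 and 106 CPM and was called in neither fit (log2 fold changes 0.23 and 0.16).

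Chac1 and Atf3 are shown for their promoters, where the C/EBP-ATF element was searched as TGATGNAA on either strand in the 250 bases before the start. Of 8 stress response genes named by the rule for this list, 7 had a promoter in the table and these 2 held the element. Among all promoters 3.45% hold it, counted per promoter and with the same search limit as above. Capitals mark the match, on the strand opposite to the gene.
Atf3, chr1:191183416-191183463, minus strand: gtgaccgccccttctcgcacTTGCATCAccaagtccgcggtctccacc
Chac1, chr2:119351029-119351076, plus strand: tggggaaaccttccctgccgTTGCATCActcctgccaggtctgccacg
Chac1, which degrades glutathione, stood at 6.84, 9.14 and 9.16 CPM in controls and at 13.8, 11.1 and 13.3 CPM in heterozygotes. Its groups did not overlap, but the log2 fold change of 0.60 ± 0.15 was not called in either fit (adjusted p = 0.30, and 0.078 without heterozygous 1). Atf3, an injury-induced factor, stood at 1.99, 1.93 and 1.09 CPM against 2.38, 5.41 and 3.33 CPM and rose without heterozygous 1 (log2 fold change 1.39 ± 0.29, adjusted p = 0.015).

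Chaperones of the endoplasmic reticulum did not pass the test in either fit. Of the 23 genes, 22 had log2 fold changes above 0 with all 6 libraries and 13 without heterozygous 1, with medians of 0.08 and 0.05. None was at an unadjusted p under 0.05 in either edgeR fit, DESeq2 called none, and 2 separated the groups upward (6.29% of all genes). Hspa5, the chaperone BiP, stood at 207, 208 and 217 CPM in controls and at 290, 202 and 196 CPM in heterozygotes, so that heterozygous 1 was above the controls and the others were below them.

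**Figure D4:**
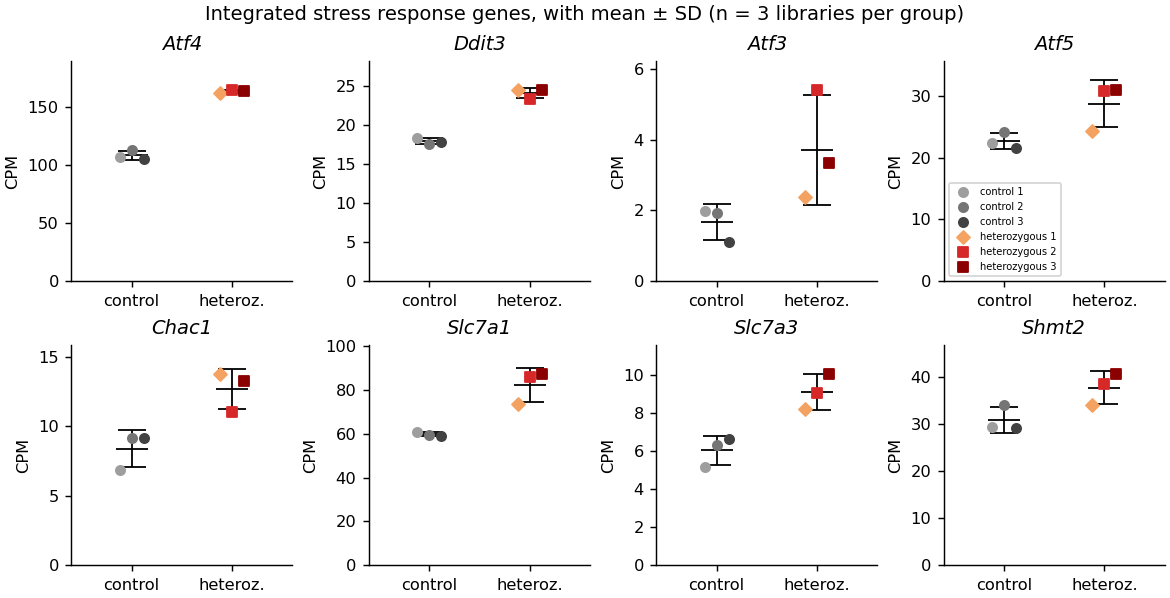
CPM in each library (y axis) for 8 genes of the integrated stress response, with 1 point per library and bars for the mean ± SD of the 3 libraries of each group. Atf4 separates the groups widely (105 to 113 CPM against 162 to 165 CPM), and Atf5 in heterozygous 1 lies next to the controls (24.4 against at most 24.2 CPM).

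Among activity and injury genes, Fosl2 and Vgf rose. Fosl2, a subunit of the transcription factor AP-1, stood at 10.8, 10.8 and 9.35 CPM in controls and at 15.8, 18.7 and 16.7 CPM in heterozygotes (log2 fold change 0.73 ± 0.12, adjusted p = 0.039, and 0.0025 without heterozygous 1). Vgf, a neuropeptide precursor of neurons, stood at 158, 183 and 169 CPM against 242, 240 and 223 CPM (log2 fold change 0.47 ± 0.08, adjusted p = 0.039, and 0.0037 without heterozygous 1). In both genes the groups stood clear of each other. The lists around them moved less. The 21 immediate early genes had a median log2 fold change of 0.12, and the 23 nerve injury genes had a median of 0.14. Without heterozygous 1, 5 and 3 of them rose, where 2.23% of all genes rose. Without control 3 these medians were 0.02 and 0.08. Fos stood at 17.1, 20.5 and 12.5 CPM against 35.8, 31.4 and 24.2 CPM and was called in neither fit (adjusted p = 0.47 and 0.21). Arc, a synaptic immediate early gene, stood at 40.0, 33.5 and 20.7 CPM against 31.6, 19.9 and 22.1 CPM.

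A further pair of genes rose outside these lists. Peg10 is an imprinted gene derived from a retrotransposon, on chromosome 6, and stood at 58.9, 58.6 and 70.3 CPM in controls and at 97.0, 110 and 107 CPM in heterozygotes. All heterozygous libraries were above the highest control, by a log2 fold change of 0.74 ± 0.09 (adjusted p = 0.013) and 0.79 ± 0.08 without heterozygous 1 (adjusted p = 6.5e-05). Fam46c, now named Tent5c, a poly(A) polymerase, stood at 2.96, 2.96 and 3.01 CPM against 6.36, 7.14 and 6.93 CPM. Both groups were tight, and the log2 fold change was 1.19 ± 0.16 (adjusted p = 0.016) and 1.24 ± 0.18 without heterozygous 1 (adjusted p = 0.0012).

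Of the 27 motor neuron and cholinergic genes, edgeR called none with all 6 libraries, with 1 at an unadjusted p under 0.05, and DESeq2 called 1 lower. Their median log2 fold change was 0.04, and -0.05 without heterozygous 2. Without heterozygous 1, 6 fell in edgeR (1.36% of all genes). Chat, the acetylcholine synthesis enzyme, stood at 38.2, 38.2 and 34.1 CPM in controls and at 41.4, 33.1 and 33.8 CPM in heterozygotes and overlapped. Ache, acetylcholinesterase, stood at 296, 299 and 280 CPM against 257, 215 and 202 CPM, below every control in each heterozygous library (adjusted p = 0.23, and 0.0011 without heterozygous 1 for a log2 fold change of -0.48). Nefl, the light neurofilament, stood at 1676, 1737 and 1657 CPM against 1857, 1397 and 1253 CPM, so heterozygous 1 was the highest library and the other two were the lowest. Nefm and Nefh showed the same order, and the 3 neurofilaments fell without heterozygous 1 by 0.34 to 0.36 on the log2 scale.

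Synaptic gene lists had medians near 0, but their sums were lower in some heterozygous libraries. The 54 neurotransmitter release genes had a median log2 fold change of -0.05, with 36 below 0. EdgeR called none with all 6 libraries, with 5 at an unadjusted p under 0.05, and DESeq2 called 1 lower. Without heterozygous 1, 1 rose and 4 fell in edgeR (2.23% and 1.36% of all genes). Their sums were 18896, 19903 and 19984 CPM in controls and 19816, 17567 and 17633 CPM in heterozygotes. Snap25, of the vesicle fusion complex, stood at 2664, 2732 and 2918 CPM in controls and at 3110, 2509 and 2357 CPM in heterozygotes. The 27 axonal transport motors had a median of -0.11, with 24 below 0 and 11 below every control in each heterozygous library (5.16% of all genes). EdgeR called none of them with all 6 libraries, with 8 at an unadjusted p under 0.05, and DESeq2 called 2 lower. In edgeR 3 fell without heterozygous 1 (1.36% of all genes). Kif5a, a neuronal kinesin mutated in motor neuron disease, stood at 1795, 2079 and 1895 CPM against 1715, 1666 and 1580 CPM and was called in neither fit (log2 fold changes -0.22 and -0.25, adjusted p = 0.68 and 0.080). The 27 transmitter receptor and enzyme genes and 36 voltage-gated channels had medians of 0.00 and -0.01. EdgeR called none of either with all 6 libraries, with 3 and 6 at an unadjusted p under 0.05, and DESeq2 called 1 channel lower. Without heterozygous 1, 2 receptor and enzyme genes rose, and 2 channels rose and 3 fell (2.23% of all genes rose and 1.36% fell). These counts moved with the offset for gene length and GC content, where 376 of all 17927 genes rose and 983 fell. With it 1 release gene rose and 15 fell, and 13 motors fell. Of the receptor and enzyme genes 1 rose and 5 fell, and of the channels 1 rose and 6 fell. The channels summed to 7731, 7693 and 7545 CPM in controls and to 7210, 6969 and 6919 CPM in heterozygotes, with no overlap.

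Myelin genes were lower in heterozygous 2 and 3. All 16 oligodendrocyte genes had log2 fold changes below 0 with a median of -0.19, neither edgeR nor DESeq2 called any with all 6 libraries (5 at an unadjusted p under 0.05 in edgeR), and 10 fell without heterozygous 1 in edgeR (1.36% of all genes), with a median of -0.29. Their sums were 27583, 26554 and 26559 CPM in controls and 26220, 21492 and 21496 CPM in heterozygotes. Mbp, myelin basic protein, stood at 14604, 14353 and 13954 CPM against 13456, 11130 and 11496 CPM, so every heterozygous library was below every control (adjusted p = 0.67, and 0.0070 without heterozygous 1 for a log2 fold change of -0.34). Mog, a minor surface protein of myelin, stood at 187, 188 and 187 CPM against 209, 144 and 146 CPM and overlapped. The Schwann cell sums given above were highest in the same 2 libraries, and their part in these values was not tested. Leaving out 1 further library turned the 10 calls into 3 to 8.

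Of 14 ependymal genes 12 were below 0, with a median log2 fold change of -0.42, and 7 stood below every control in each heterozygous library (5.16% of all genes). Foxj1, the regulator of motile cilia, stood at 42.1, 45.3 and 37.7 CPM against 34.9, 27.0 and 26.8 CPM (log2 fold change -0.50 ± 0.11, adjusted p = 0.21, and -0.63 and 0.0013 without heterozygous 1). In edgeR no other gene of the list was called in either fit, and DESeq2 called 1 lower with all 6 libraries and 2 without heterozygous 1. The 12 endothelial genes had a median of -0.20, which ranged from -0.08 without control 1 to -0.31 without control 3. EdgeR called none of them in either fit, with 1 at an unadjusted p under 0.05 with all 6 libraries and 3 without heterozygous 1, where DESeq2 called 1. The 12 oligodendrocyte precursor genes had a median of -0.03, and 1, Bcas1, fell without heterozygous 1 (1.36% of all genes). The 17 perineuronal net and matrix genes had a median of -0.06, and 2 rose and 4 fell without heterozygous 1 (2.23% and 1.36% of all genes).

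**Figure D5:**
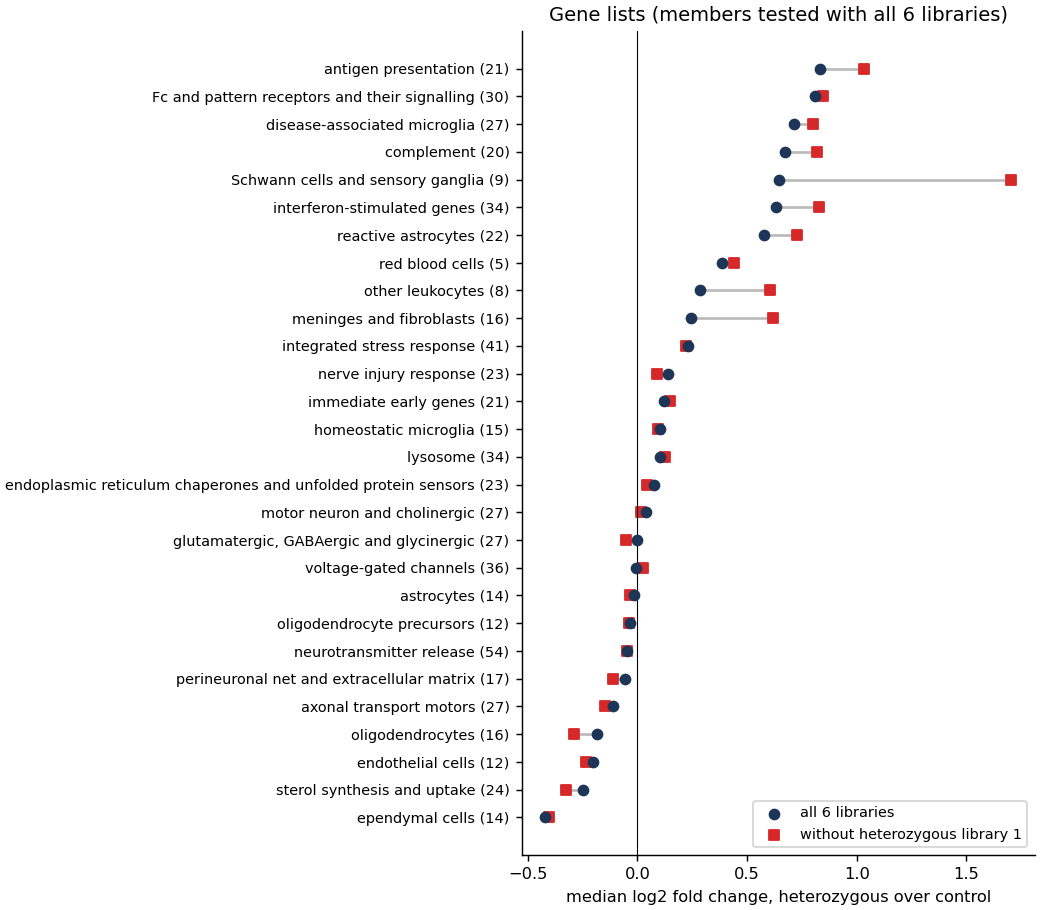
Median log2 fold change of 28 gene lists, with all 6 libraries and without heterozygous 1, where positive values are higher in heterozygotes. Antigen presentation, Fc and pattern receptor, disease-associated microglial, complement, Schwann cell and ganglion, and interferon lists lie at 0.63 or above with all 6 libraries, and oligodendrocyte, endothelial, sterol and ependymal lists lie at -0.19 or below. The skeletal muscle list (median 2.79, and 0.47 without heterozygous 2) is not drawn.

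The only gene that fell with all 6 libraries was Gm23935, annotated as a microRNA gene of 57 bases at chr16:11144125-11144181. It stood at 559, 641 and 494 CPM in controls and at 393, 372 and 343 CPM in heterozygotes, with a log2 fold change of -0.61 ± 0.10 (adjusted p = 0.039), and -0.66 ± 0.10 without heterozygous 1 (adjusted p = 0.0056). It lies on the strand opposite to Zc3h7a, which stood at 48.8, 43.8 and 47.3 CPM against 41.1, 44.5 and 44.7 CPM. The strand setting of the counting is not given in the sources used here, so reads of the pair cannot be told apart and the identity of the RNA is uncertain.

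The heterozygous effect in the spinal cord was set against that in the cortex of the same age and in the cerebellum at 5 months, each with 3 heterozygous and 3 control libraries of its own. An interaction test over the 12 libraries of each pair asked whether the log2 fold changes differ. In cortex, 3 of 18241 genes passed at an adjusted p under 0.05 (0.0164%), and in cerebellum 28 of 17938 (0.156%). For Ctss the log2 fold change was 0.67 in spinal cord and -0.44 in cortex, a difference of 1.10 ± 0.15 (adjusted p = 0.032). It was kept without heterozygous 1 (adjusted p = 0.024) and lost without any other spinal cord library (0.11 to 0.17) or with the replicate number as a block (0.14). Fosl2 was higher in heterozygous spinal cord by 0.73 and stood at -0.35 in cerebellum, a difference of 1.09 ± 0.20 (adjusted p = 0.033, and 0.059 to 0.10 without any library other than heterozygous 1). Peg10 differed from cerebellum by 0.64 ± 0.11 (0.74 against 0.11, adjusted p = 0.019, and 0.060 to 0.10 without control 1, control 2, heterozygous 2 or heterozygous 3), and its difference from cortex, where it rose by 1.48, was not called (-0.73 ± 0.19, adjusted p = 0.39). Atf5 was above 0 in both tissues and smaller in spinal cord, with 0.34 against 1.07 in cerebellum (difference -0.71 ± 0.14, adjusted p = 0.044, and up to 0.18 with a library left out). For Atf4, C1qa, Trem2 and Tyrobp the difference from cortex did not pass the test (adjusted p = 0.91, 0.17, 0.18 and 0.081), and neither did that from cerebellum (adjusted p = 0.41, 0.94, 0.85 and 1.00).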

How the data were processed

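Total RNA was extracted from lumbar spinal cord with TRIzol and sequenced as 6 of 24 libraries. Per the labels, the authors aligned reads to mm10 with HISAT2 2.0.1 after Trimmomatic 0.30 and counted them per gene with HTSeq 0.6.1. The deposited values are raw read counts per gene, and the strand setting and annotation release are not given in the sources used here. Cortex came from the same table and cerebellum from a separate table of raw counts. Counts were tested with edgeR 4.0.16 in R 4.3.3 (filterByExpr with at least 10 reads, at least 15 in total; TMM; robust quasi-likelihood test; Benjamini-Hochberg adjustment), after the script was tested on simulated data. Calls needed an adjusted p below 0.05 together with a log2 fold change of more than 0.2 in size, the threshold of the study. CPM were computed here as reads per 1000000 of the TMM-scaled total of tested genes. SE is the log2 fold change over the root of F. Totals ran from 17121314 to 25490124 counts, and intervals cover counting error only. Interactions with cortex or cerebellum used 12 libraries and no fold threshold. DESeq2 1.42.0, other scalings and filters, leaving out each library, and a length and GC offset (loess, span 0.4) were alternatives. The named genes were those the study names, the 12 largest non-overlapping calls in each direction, called list members, genes called with and without heterozygous 1, and up to 4 uncalled members of a list. Several genes that met the rule, among them Mmp12, Gbp10 and Cd22, are not described. Asns, Cd74, Chat, Fos, Tmem119, S100a9, Zc3h7a, mt-Rnr1 and mt-Rnr2 fall outside that rule and were picked with their values in view. The members and the 32 gene lists, and the added sterol list, were chosen with earlier results of these data and the study's lists of changed genes known. Symbols are those of the file, and gene positions are from the GENCODE mouse annotation of GRCm38.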

Additional observations from a re-analysis of the deposited data

Results flagged for a closer look

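These differences between tissues passed the interaction test (edgeR, 12 libraries each) for genes called in the spinal cord with all 6 libraries or without heterozygous 1, and were singled out because the heterozygous effect differed from that in another tissue. Against cortex, Ctss differed by 1.10 on the log2 scale (0.67 in spinal cord, -0.44 in cortex, adjusted p = 0.032). Lmtk3, a kinase of neurons, differed from cortex by -1.06 (0.34 against 1.40, adjusted p = 0.032). Against cerebellum at 5 months, Fosl2 differed by 1.09 (0.73 against -0.35, adjusted p = 0.033) and Peg10 by 0.64 (0.74 against 0.11, adjusted p = 0.019). Atf5 differed from cerebellum by -0.71 (0.34 against 1.07, adjusted p = 0.044). Pde1b, a calcium-dependent phosphodiesterase, differed from cerebellum by -0.81 (-0.18 against 0.65, adjusted p = 0.031). With 1 library left out, Lmtk3 passed without heterozygous 1 or heterozygous 3 (adjusted p = 0.041 and 0.019) and not otherwise, and Pde1b passed without heterozygous 1 alone (adjusted p = 0.00065). The cerebellum mice were 5 months old and the spinal cord mice 6 months old, so tissue and age cannot be told apart there. No group had enough libraries for the test of single outlying samples.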

How the results depend on the processing

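The 19 genes called with all 6 libraries kept their direction in the 17 alternatives run. This says little, because their groups did not overlap in any of the 19 and the alternatives reuse the same counts. Non-robust dispersions called 0 of the 19, and so did the fit with all 12 spinal cord and cortex libraries. Without control 1, control 2, heterozygous 2 or heterozygous 3 the count was also 0, and without control 3 it was 1. The other alternatives called 10 to 19 of them. With all 6 libraries, calls higher and lower were 59 and 15 with DESeq2, 10 and 0 with library totals, 186 and 58 with no filter, 0 and 0 with non-robust dispersions and 0 and 0 with all 12 libraries of the table. Higher calls ranged from 0 to 399 and lower calls from 0 to 244 when each library was left out. With heterozygous 1 left out, calls were 368 and 337 with DESeq2 and 838 and 447 with no filter. The replicate block gave 40 and 3 calls, and 38 and 5 in DESeq2. Deviations from the group mean correlated at -0.038, 0.148 and -0.044 between same-numbered libraries of the 2 groups. Between libraries with different numbers they correlated at -0.131 to 0.138. With 3 libraries a group this cannot tell whether the numbers pair the samples, and the labels do not say. Of alternatives added after seeing the data for the 643 calls without heterozygous 1, the length and GC offset gave 1359 and a further library left out gave 230 to 703; no filter gave 1285. Differences from cortex (3) became 51 with DESeq2, 20 with no filter, 0 with the replicate block and 0 to 16 with a library left out. Differences from cerebellum (28) became 119 with DESeq2, 104 with no filter and 10 to 403 with a library left out. The cause of these shifts was not tested. With 3 libraries a group, small changes in scarce genes may have been missed.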

Other observations

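A list of 24 genes of sterol synthesis and uptake was assembled after the values were seen, so its direction is a description. All 24 had log2 fold changes below 0, with a median of -0.25 with all 6 libraries and -0.33 without heterozygous 1. EdgeR called none with all 6 libraries and 12 lower without heterozygous 1 (1.36% of all genes). Insig1, a sterol-sensing regulator, stood at 153, 156 and 145 CPM in controls and at 139, 107 and 103 CPM in heterozygotes. Sqle, squalene epoxidase, stood at 110, 109 and 113 CPM against 105, 86.2 and 71.5 CPM. In both, every heterozygous library was below every control, and heterozygous 1 was the nearest to them. Oligodendrocytes, whose marker sums were lowest in the same 2 libraries, use this pathway for myelin, and the part of those sums in the result was not tested.

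The mitochondrial ribosomal RNA mt-Rnr1 stood at 1742, 1697 and 1605 CPM in controls and at 1817, 1056 and 1156 CPM in heterozygotes. Heterozygous 1 was the highest library and the other two were the lowest, with a log2 fold change of -0.61 (adjusted p = 0.00022, edgeR) without heterozygous 1 and -0.32 (adjusted p = 0.86) with it. mt-Rnr2 followed the same order.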
